A study of Mus musculus with 32 samples.

Results

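Glycolysis and glucose-lactate transport in the retinal pigment epithelium (RPE) was followed through 35 genes, chosen by symbol for their function, with earlier results of these data already known: glucose transporters, the enzymes from hexokinase to lactate dehydrogenase, lactate transporters with their chaperone, the gatekeepers of mitochondrial pyruvate, and enzymes of glycogen. They correspond to 36 of the 34453 genes listed in the count table, because *Aldoa* is listed under 2 identifiers. The second *Aldoa* entry reached at most 20 counts in a library. Over all libraries it held 0.0136% of the counts of both entries, and it was left out. All 35 genes passed the filter on low counts in every comparison.

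RNA had been sequenced from RPE of *rd1* mice, which carry a mutation of the rod phosphodiesterase gene *Pde6b* and lose their rods early and their cones later. In each mouse, 1 eye was given a mixture of AAV-Best1-Nrf2 and AAV-Best1-GFP (Nrf2 eye) and its fellow AAV-Best1-GFP alone (control eye). Both eyes thus carried the GFP vector. By the study's methods, the mixture had a higher total vector dose than the GFP vector alone and included a further capsid type. Effects of dose or capsid cannot be told apart from those of Nrf2. The Nrf2 vector holds the human cDNA of the antioxidant transcription factor Nrf2, and both vectors are driven by the human Best1 promoter, which is active in the RPE. Tissue was taken at P20 from 7 mice and at P40 from 9 mice, which gave 32 libraries. The material was an eyecup preparation after the retina had been removed. Connective tissue was cleaned from the eyecup, the eyecup was put into RNA Protect, and RNA was purified from the supernatant. This RNA was amplified before sequencing. Other cells of the eyecup could still contribute RNA. All pairs are labelled *rd1*; the study's methods name fewer *rd1* pairs at each age and also CD1 (wild-type) pairs at P40, and which P40 libraries those would be cannot be told from the labels.

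Total counts per library ran from 16548332 to 50542797. By group, the medians were 30969254 in control eyes at P20, 32215113 in Nrf2 eyes at P20, 34586699 in control eyes at P40 and 38726346 in Nrf2 eyes at P40. A count of 3 in a library, taken as the floor of detection, equals 0.0565 to 0.182 CPM (a gene's counts scaled to a common library size). The counts come from amplified reads without molecular identifiers, so this floor covers counting error only.

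The transgene set the groups apart at P40 and nearly so at P20. Its level in control eyes at P20 had a lowest value of 0.924, a median of 47.2 and a highest of 1098 CPM, against 1082, 5428 and 9503 CPM in Nrf2 eyes. At P40 the control eyes lay at 0, 0.383 and 99.0 CPM and the Nrf2 eyes at 3203, 7021 and 10434 CPM. The highest control library at P20 (mouse 3) and the lowest Nrf2 library at P20 (mouse 4) were next to each other on this scale. Those libraries also resembled each other more than any other pair among the 32, with count differences 7.84 times sampling noise against 44.9 times for the next closest pair. A swap or shared material was not settled, so the labels of both libraries are in doubt. They were kept, and the pathway genes called at P20 are given with and without mice 3 and 4.

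Glycolysis splits glucose to pyruvate in the cytosol, and lactate dehydrogenase converts pyruvate and lactate into one another. In the outer retina, glucose from the choroid crosses the RPE through GLUT1 to the photoreceptors, which turn much of it into lactate; the RPE takes lactate up through MCT1 on its apical face and releases it through MCT3 on its basal face. Pyruvate and lactate can feed RPE mitochondria, where the pyruvate carrier and pyruvate dehydrogenase control their entry.

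Marker genes describe the tissue in these libraries. The summed level of 11 RPE markers had lowest, median and highest values of 12720, 20090 and 28370 CPM in P20 control eyes, and 17880, 20890 and 31790 CPM in Nrf2 eyes at P20. At P40 the sums were 11370, 36460 and 68700 CPM in control eyes and 13250, 19600 and 70930 CPM in Nrf2 eyes. Within mice, the RPE sum was higher in the Nrf2 eye of 4 of 7 at P20 (median log2 ratio 0.592). The same held for 4 of 9 at P40 (median −0.622, from −1.94 to 1.46). *Rgr* was the most abundant RPE marker in control eyes at P20 and *Ttr* in the other 3 groups, and no RPE marker was at 0 in every library of a group. Within the list, 1 marker (*Rpe65*) fell in Nrf2 eyes at P20, and 5 (*Rpe65*, *Rlbp1*, *Lrat*, *Rdh5* and *Rgr*) fell at P40, all of them genes of the visual cycle.

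Cone markers differed more between the eyes. The sum of 8 cone genes was 39.1, 309 and 930 CPM (lowest, median, highest) among P20 control eyes, against 17.9, 31.2 and 94.3 CPM among Nrf2 eyes, lower in the Nrf2 eye of 7 of 7 mice, where 2 of 8 cone genes fell (*Opn1sw* and *Gnat2*; 7 with an unadjusted p under 0.05). At P40 it was 271, 788 and 2106 CPM against 28.8, 48.7 and 307 CPM, lower in 8 of 9 mice, and 8 of 8 cone genes fell. The median log2 ratio of the sums was −3.83 at P20, also without mice 3 and 4, and −4.37 at P40. *Arr3* was the most abundant cone gene in control eyes at P20, *Pde6h* in control eyes at P40, and *Gnat2* in Nrf2 eyes at both ages. The sum of 10 rod genes was lower in the Nrf2 eye of 6 of 7 mice at P20 and 8 of 9 at P40, with medians of 71.6 and 21.7 CPM at P20 and 145 and 22.6 CPM at P40; edgeR called 0 of 10 rod genes at P20 (4 with an unadjusted p under 0.05) and 2 of the 9 tested at P40, both lower. A list of 7 genes shared by rods and cones went the other way as a sum, higher in the Nrf2 eye of 6 of 7 mice at P20 (median log2 ratio 1.12, also without mice 3 and 4) and 5 of 9 at P40 (0.655). *Rom1*, its most abundant gene in Nrf2 eyes, rose at both ages, and the other 6 had fold changes below 0 at P20, none called, and fell at P40. Among 9 macrophage and microglia markers, 5 rose in Nrf2 eyes at P40 (55.6%, against 4.57% of all genes). Fold changes were above 0 for 7 of the 9 and below 0 for 2. *Csf1r*, the most abundant of them, had medians of 109 CPM in control eyes and 49 CPM in Nrf2 eyes at that age. The sum of this list was higher in the Nrf2 eye of 6 of 9 mice (median log2 ratio 0.571). In bulk tissue, fewer cells of a type and less RNA per cell cannot be told apart. Photoreceptors are themselves strongly glycolytic cells, and the part of these cells in the results on the 35 genes was not tested.

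**Figure D1:**
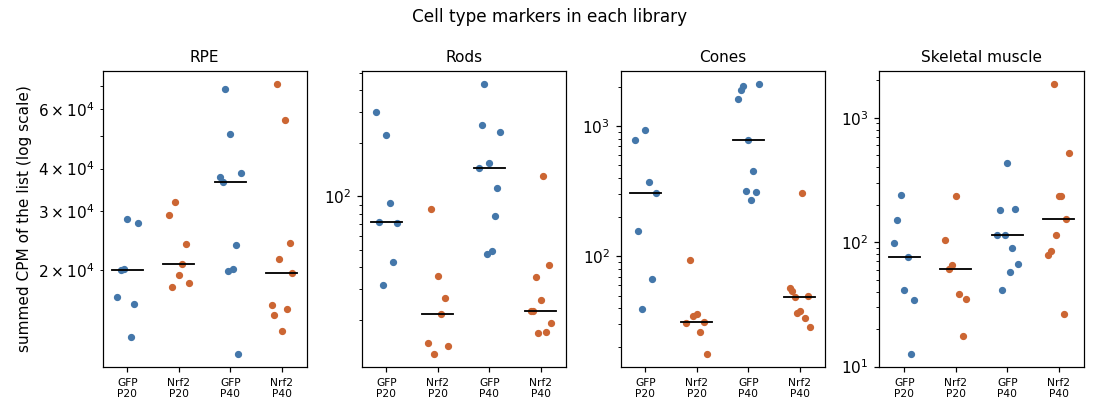
Summed CPM (log axis) of RPE, rod, cone and skeletal muscle markers in each library, by group, with group medians as lines. Cone sums had medians of 309 and 788 CPM among control eyes at P20 and P40, against 31.2 and 48.7 CPM in Nrf2 eyes.

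Compared per kilobase of transcript, the 35 genes spanned more than 3 orders of magnitude. *Bsg*, which encodes basigin, the chaperone that brings lactate transporters to the membrane, had the highest median over the 32 libraries, 3461 CPM per kb. *Aldoa* (aldolase, 1306 CPM per kb), *Slc16a8* (MCT3, 806), *Ldhb* (698) and *Pkm* (pyruvate kinase, 559) came next. The lowest medians belonged to *Hk2* (1.33 CPM per kb), *Slc2a3* (GLUT3, 0.977) and *Slc16a3* (MCT4, 0.704). This order pools the 4 groups, between which it differed: in control eyes at P20 *Ldhb* (361) was below *Pkm* (582), *Tpi1* (388) and *Eno1* (384), and *Hk2* (2.11) was above *Slc2a3* (1.68), *Slc16a7* (1.61) and *Pdk4* (1.36). Adjacent genes in this order were hard to separate. The ranges overlapped for 34 of 34 pairs of neighbours, and the order held in 32 of 32 libraries for 1 of them, *Bsg* above *Aldoa*.

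Within gene families the order was clearer for most of the pairs compared. *Slc2a1* (GLUT1) was above *Slc2a3* per kb in 32 of 32 libraries, *Slc16a8* above *Slc16a1* (MCT1) in 32 of 32, and *Hk1* above *Hk2* in 31 of 32. Of the pyruvate dehydrogenase kinases, *Pdk2* was above *Pdk1* and *Pdk1* above *Pdk4* in 32 of 32 libraries. *Ldhb* was above *Ldha* in 30 of 32. The order was less clear for *Pfkl* over *Pfkp*, in 25 of 32 libraries, and for *Pfkfb4* over *Pfkfb3*, in 17 of 32. Of these families, the libraries carried mostly GLUT1, MCT3 and hexokinase 1 transcripts.

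**Figure D2:**
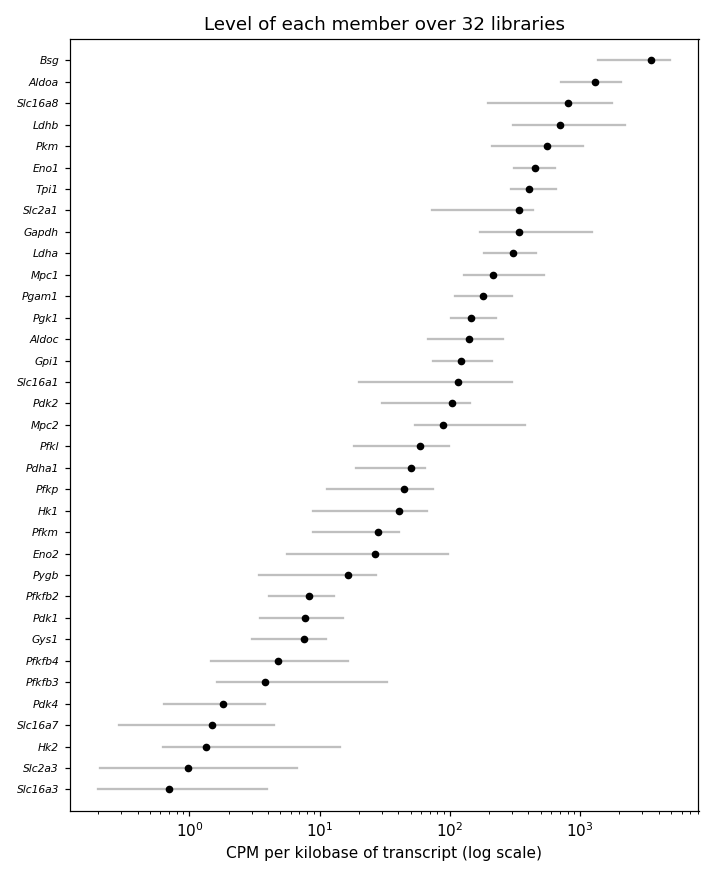
CPM per kb of transcript (log axis) of the 35 genes, with the median of 32 libraries as a dot and the lowest to highest library as a line. *Bsg* (3461) stands at the top and *Slc16a3* (0.704) at the bottom, and the ranges of neighbouring genes overlap.

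The first question was how Nrf2 eyes differed from control eyes of the same mice. At P20, *Pfkfb4*, *Gapdh* and *Ldhb* rose in Nrf2 eyes, 3 of 35 genes (8.57%), and 0 fell. Among all 16303 genes tested, 3.41% passed an adjusted p of 0.05 (edgeR), 2.93% higher and 0.485% lower. The median log2 fold change was 0.08 over the 35 genes and −0.041 over all genes, and 20 of the 35 lay above 0. Unadjusted p was under 0.05 for 12 of the 35 (34.3%, against 18.2% of all genes). DESeq2 called 9 (25.7%, against 12% of all genes) and limma voom 14 (40%, against 16%), of which 2 (DESeq2: *Hk2*, *Ldha*) and 3 (voom: *Hk2*, *Pfkfb2*, *Ldha*) were lower. Without mice 3 and 4, *Gpi1* joined the same 3 genes, 4 in all, with 4.58% of all genes called. The other 31 of the 35 were not called in that fit. Between eyes, 15 of them had log2 fold changes of −0.0822 for *Slc2a1*, 0.45 for *Hk1*, −1.05 for *Hk2*, −0.36 for *Pfkfb3*, 0.69 for *Pkm*, −0.52 for *Ldha*, −0.15 for *Slc16a1*, −0.0643 for *Slc16a3*, 0.10 for *Slc16a8*, 0.43 for *Bsg*, −0.0855 for *Pdk1*, 0.91 for *Pdk4*, 0.47 for *Mpc1*, −0.26 for *Mpc2* and −0.0942 for *Pygb* (adjusted p from 0.0941 to 0.971). Where no tool is named, called and not called refer to edgeR with all mice.

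At P40, *Pfkfb4* and *Gpi1* rose, 2 of 35 genes (5.71%), and 0 fell; 10 had an unadjusted p under 0.05 (28.6%, against 13% of all genes). Of all 16686 genes tested, 4.57% passed, 3.33% higher and 1.23% lower. The median log2 fold change was 0.12 over the 35 genes and −0.0261 over all genes, with 21 above 0. DESeq2 and voom each called 7 genes (20%, against 8.27% and 7.95% of all genes), among them *Slc16a1* and *Slc16a8* as lower. *Pfkfb4* was the 1 gene of the 35 called at both ages.

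**Figure D3:**
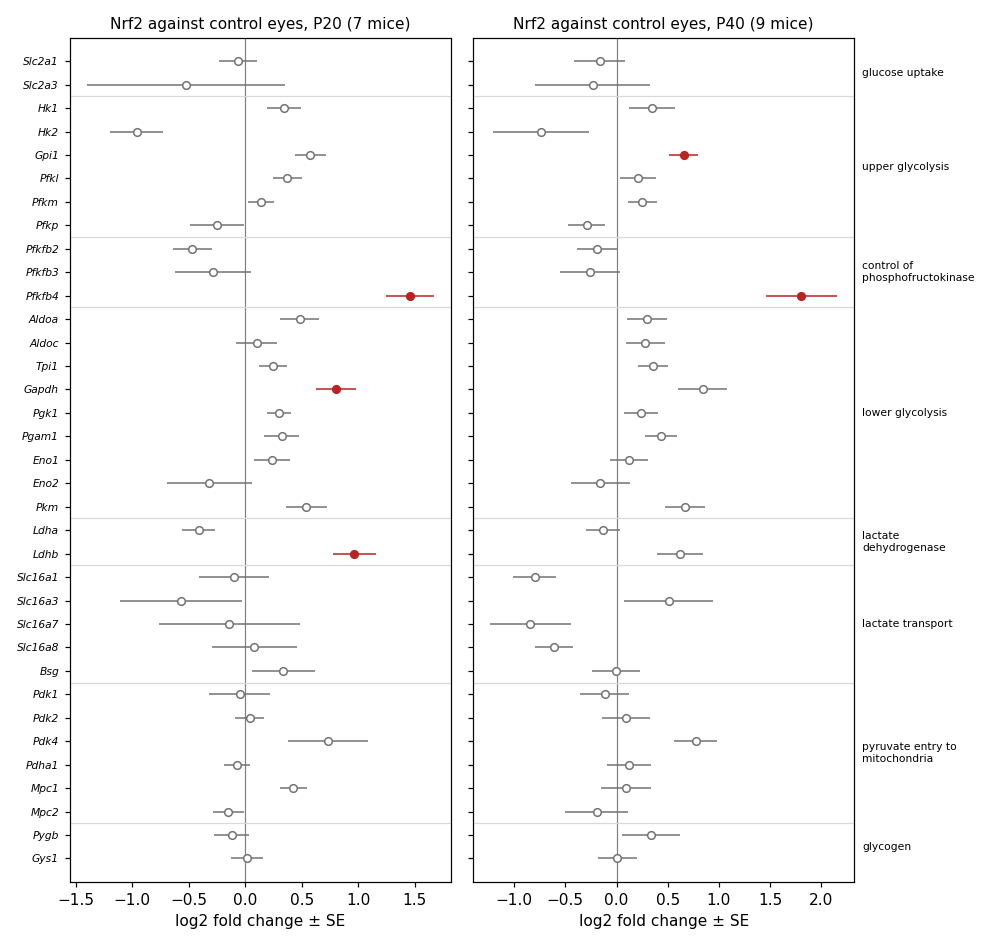
Log2 fold change (Nrf2 over control eyes of the same mouse) of the 35 genes at P20 and P40, ordered by role, with bars of 1 standard error. Filled red points have an adjusted p under 0.05: *Pfkfb4* (1.46), *Gapdh* (0.80) and *Ldhb* (0.96) at P20, *Pfkfb4* (1.80) and *Gpi1* (0.65) at P40.

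Glucose uptake showed no called gene. *Slc2a1*, the GLUT1 transporter of the RPE, had lowest, median and highest levels of 727, 1156 and 1363 CPM in control eyes and 852, 1108 and 1283 CPM in Nrf2 eyes at P20. By P40 the levels were 236, 1111 and 1334 CPM in control eyes and 365, 890 and 1414 CPM in Nrf2 eyes. The groups overlapped, with log2 fold changes of −0.06 (SE 0.167, adjusted p = 0.878) at P20 and −0.16 (SE 0.248, adjusted p = 0.892) at P40. The related neuronal transporter gene *Slc2a3* was near the bottom of the scale and also was not called at either age.

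The upper steps trap glucose and commit it to glycolysis. *Gpi1* (glucose-6-phosphate isomerase; ENSMUSG00000036427, chr7:34201330-34230336, minus strand, GRCm38) had levels of 212, 298 and 322 CPM in control eyes and 348, 465.9 and 581 CPM in Nrf2 eyes at P40. Every Nrf2 library was above every control library at that age, the 1 member of the 35 with separate groups in a comparison of eyes. The share of all genes with separate groups was not counted. *Gpi1* rose by 0.65 on the log2 scale (adjusted p = 0.0199, SE 0.143), higher in 9 of 9 mice. The call was lost without mouse 4 (0.59, adjusted p = 0.0644) and without mouse 7 (0.65, adjusted p = 0.0696). At P20 it lay at 238, 331 and 380 CPM in control eyes and 341, 465 and 611 CPM in Nrf2 eyes. The lowest Nrf2 value was that of mouse 4, the library with the least transgene. At that age *Gpi1* was not called (0.58, SE 0.14, adjusted p = 0.0646, higher in 6 of 7 mice) but was called without mice 3 and 4 (0.70, SE 0.145, adjusted p = 0.0451), without mouse 4 alone, by DESeq2 and voom, and with no mouse block.

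Hexokinase, which phosphorylates glucose, was represented mainly by *Hk1*. Its levels were 119, 153 and 231 CPM in control eyes and 146, 199 and 251 CPM in Nrf2 eyes at P20, then 33.3, 94.8 and 235 CPM and 41.5, 171 and 251 CPM at P40. Log2 fold changes of 0.34 at P20 (SE 0.152, adjusted p = 0.279) and 0.35 at P40 (SE 0.225, adjusted p = 0.627) were not called by edgeR; voom, and edgeR without mouse 4, called *Hk1* higher at P20. *Hk2*, the inducible isoform, was scarce, with 3.45, 8.75 and 17.6 CPM in control eyes and 2.71, 4.41 and 5.17 CPM in Nrf2 eyes at P20. It was lower in the Nrf2 eye of 7 of 7 mice at P20, although the ranges overlapped (−0.96, SE 0.235, adjusted p = 0.0659), and it was called lower by DESeq2, by voom and with no mouse block. At P40 *Hk2* lay at 4.16, 10.7 and 59.5 CPM in control eyes and 2.58, 4.93 and 41.4 CPM in Nrf2 eyes. The P40 maxima came from the control eye of mouse 8 and the Nrf2 eye of mouse 3, and the difference was not called (−0.74, SE 0.472, adjusted p = 0.62, lower in 7 of 9 mice). *Hk1* made up a median of 95.1% of the per-kb sum of both genes in control eyes and 97.9% in Nrf2 eyes at P20. By P40 this share had lowest, median and highest values of 38.3, 94.4 and 96.9% in control eyes and 63.9, 97.2 and 98.9% in Nrf2 eyes. The phosphofructokinase genes *Pfkl*, *Pfkm* and *Pfkp* were not called at either age by edgeR with all mice; voom, and edgeR without mouse 4, called *Pfkl* higher at P20.

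Fructose 2,6-bisphosphate, the strongest activator of phosphofructokinase, is made and removed by the PFKFB enzymes, and here *Pfkfb4* gave the largest fold changes of the 35 genes at both ages. *Pfkfb4* (ENSMUSG00000025648, chr9:108991778-109032228, plus strand, GRCm38) had levels of 6.90, 12.95 and 18.75 CPM in control eyes and 16.6, 33.8 and 55.9 CPM in Nrf2 eyes at P20. The ranges overlapped through 1 Nrf2 library, that of mouse 4. It rose by 1.46 on the log2 scale (adjusted p = 0.013, SE 0.212), higher in 7 of 7 mice, and by 1.54 (SE 0.277, adjusted p = 0.0329) without mice 3 and 4. When mouse 7 was left out the value was 1.38 (adjusted p = 0.056) and 0 of the 35 genes were called at P20 (9 with an unadjusted p under 0.05, 25.7% against 12.7% of all genes).

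At P40 *Pfkfb4* lay at 4.98, 9.19 and 16.1 CPM in control eyes and 9.48, 42.1 and 56.5 CPM in Nrf2 eyes. The low Nrf2 values were those of mice 3 and 8, and the highest control value was also from mouse 8. The log2 fold change reached 1.80 (adjusted p = 0.0101, SE 0.349), with the Nrf2 eye higher in 8 of 9 mice, and the gene was called with each of the 9 mice left out in turn. Its relatives did not share this pattern. *Pfkfb3*, whose enzyme strongly favours synthesis of the activator, had 6.41, 8.02 and 12.1 CPM in control eyes and 3.45, 6.5 and 26.3 CPM in Nrf2 eyes at P20. The P40 values were 4.44, 8.30 and 70.4 CPM and at 4.84, 9.59 and 19.2 CPM. Both fold changes were below 0 and uncalled (−0.29, SE 0.333, adjusted p = 0.687, and −0.26, SE 0.293, adjusted p = 0.841), and *Pfkfb2* was not called at either age except as lower at P20 by voom and without mouse 4. *Pfkfb4* was above *Pfkfb3* per kb in 17 of 32 libraries, a count that pools both kinds of eye. In Nrf2 eyes the medians of *Pfkfb4* and *Pfkfb3* were 9.93 and 3.04 CPM per kb at P20 and 12.4 and 4.49 at P40. Control eyes had 3.81 and 3.76 at P20 and 2.70 and 3.89 at P40.

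**Figure D4:**
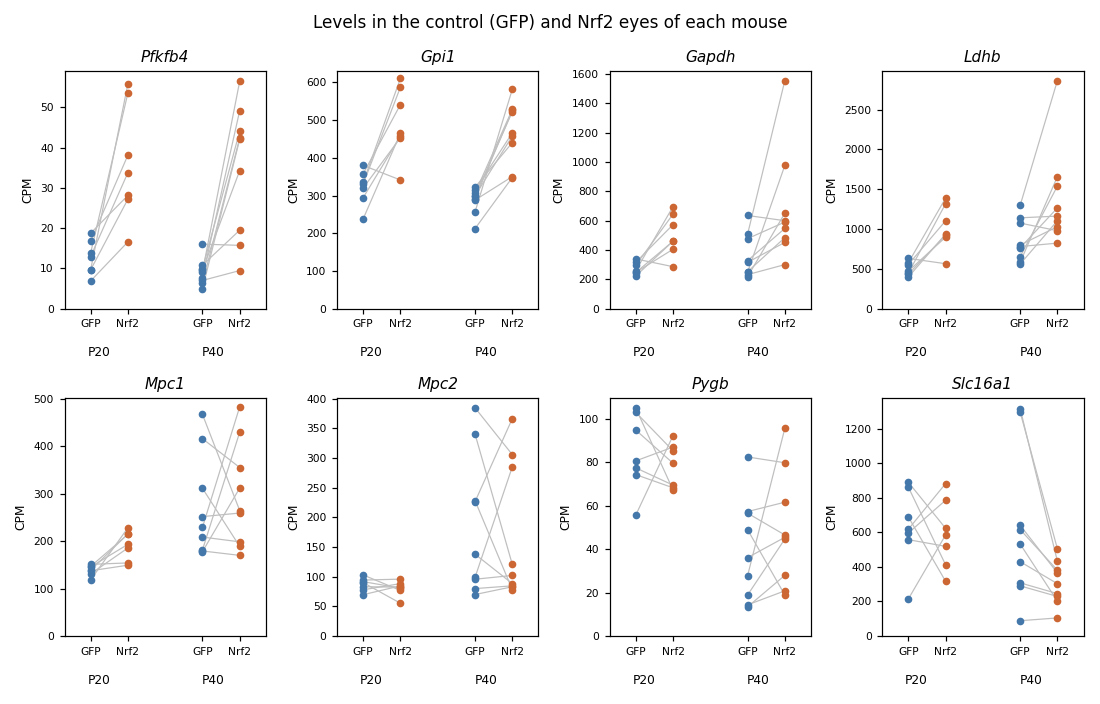
CPM of 8 genes in the control and Nrf2 eye of each mouse, joined by a line, at P20 (7 mice) and P40 (9 mice). *Pfkfb4* was higher in the Nrf2 eye of 7 of 7 mice at P20 and 8 of 9 at P40, and *Gpi1* of 6 of 7 and 9 of 9.

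Promoter sequences were examined for the letters of 2 response elements: the core of the antioxidant response element to which Nrf2 binds with small Maf proteins (TGACNNNGC) and the core of the hypoxia response element (ACGTG), both strands. RefSeq windows (GRCm38.p6) of 300 bases, 250 before and 50 from each transcription start, were found for 32 of the 35 genes, 49 windows in all, and not for *Slc2a3*, *Slc16a7* and *Bsg*. TGACNNNGC occurred in 4 of the 49 windows (8.16%) against 12.4% of 32851 windows of all genes, and ACGTG in 21 (42.9%) against 19.6%. The genes with TGACNNNGC were *Hk1*, *Aldoa*, *Slc16a1* and *Mpc1*. *Pfkfb4*, *Gpi1* and *Ldhb* held neither core in their windows. A match is a description of letters, not a bound site, and a window without one says nothing of the factor.

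The windows of *Pfkfb4*, called at both ages, of *Gapdh*, called at P20, of *Slc16a1*, the lactate transporter gene in which both cores meet, and of *G6pdx*, a gene of the neighbouring pentose phosphate pathway that rose at both ages (values given with that pathway), are shown 5′ to 3′ on the strand of the gene. They lie at chr9:108991652-108991951 (plus strand), chr6:125165724-125166023 (minus strand), chr3:104638414-104638713 (plus strand) and chrX:74428831-74429130 (minus strand), each spanning a promoter and the first bases of exon 1. Capitals mark TGACNNNGC or ACGTG on either strand. *Pfkfb4* has no capitals. *Gapdh* has 1 ACGTG, downstream of the start. In *Slc16a1* the 2 cores overlap in 1 stretch, and a separate ACGTG follows the start. *G6pdx* has 1 of each.
Pfkfb4: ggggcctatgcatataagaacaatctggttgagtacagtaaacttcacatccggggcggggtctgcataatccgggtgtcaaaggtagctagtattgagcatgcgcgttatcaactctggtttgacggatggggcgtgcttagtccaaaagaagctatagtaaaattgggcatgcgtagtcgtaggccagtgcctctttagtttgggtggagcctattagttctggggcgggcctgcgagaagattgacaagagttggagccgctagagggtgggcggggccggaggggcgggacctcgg
Gapdh: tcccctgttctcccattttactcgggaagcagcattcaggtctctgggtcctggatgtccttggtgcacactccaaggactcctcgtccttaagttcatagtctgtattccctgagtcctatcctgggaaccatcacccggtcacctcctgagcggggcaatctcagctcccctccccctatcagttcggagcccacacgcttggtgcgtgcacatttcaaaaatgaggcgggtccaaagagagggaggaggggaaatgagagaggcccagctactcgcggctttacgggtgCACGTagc
Slc16a1: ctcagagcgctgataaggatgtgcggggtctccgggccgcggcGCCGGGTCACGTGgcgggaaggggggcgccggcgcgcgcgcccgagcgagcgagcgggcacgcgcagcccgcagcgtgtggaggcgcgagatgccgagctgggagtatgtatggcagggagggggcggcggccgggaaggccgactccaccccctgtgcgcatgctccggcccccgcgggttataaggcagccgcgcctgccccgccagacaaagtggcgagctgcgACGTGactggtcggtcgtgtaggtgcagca
G6pdx: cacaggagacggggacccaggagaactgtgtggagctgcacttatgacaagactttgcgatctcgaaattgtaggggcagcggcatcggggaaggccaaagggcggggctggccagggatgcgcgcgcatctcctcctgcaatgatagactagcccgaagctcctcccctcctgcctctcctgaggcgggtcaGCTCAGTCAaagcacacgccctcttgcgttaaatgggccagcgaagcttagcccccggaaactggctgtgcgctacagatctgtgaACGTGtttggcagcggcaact

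In lower glycolysis, from aldolase to pyruvate kinase, 8 of 9 genes had a log2 fold change above 0 at P20 and 8 of 9 at P40, all but the neuronal enolase *Eno2* in each case. Among all genes tested, 45.3% and 46.5% lay above 0, and a shared direction of the 9 was not tested. Of these, 1 was called at P20 and 0 at P40 by edgeR, where DESeq2 and voom called *Gapdh* and *Pkm* and 4 had an unadjusted p under 0.05. *Gapdh* (glyceraldehyde-3-phosphate dehydrogenase; ENSMUSG00000057666, chr6:125161715-125166467, minus strand, GRCm38), often used as a reference gene, whose promoter window is printed with that of *Pfkfb4*, had 223, 259 and 340 CPM in control eyes and 287, 461 and 696 CPM in Nrf2 eyes at P20. The overlap came from the Nrf2 eye of mouse 4, and the other Nrf2 libraries were all above the control range. It rose by 0.80 (SE 0.178, adjusted p = 0.0481), higher in 6 of 7 mice, and by 0.98 (SE 0.159, adjusted p = 0.0236) without mice 3 and 4. That call was close to the threshold, and it was lost with RLE normalization, without the filter on low counts, and when mouse 1, 2, 3, 5, 6 or 7 was left out, with values from 0.707 to 0.985 and adjusted p up to 0.16 over the alternatives.

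At P40 *Gapdh* lay at 218, 317 and 636 CPM in control eyes and 301, 591 and 1556 CPM in Nrf2 eyes. The maximum was from mouse 3, whose Nrf2 library also had the highest sum of skeletal muscle markers, 1859 CPM; the part of muscle RNA in this value was not tested. *Gapdh* was higher in the Nrf2 eye of 8 of 9 mice but was not called by edgeR (0.84, SE 0.24, adjusted p = 0.0815) except without mouse 8. Exons of *Iffo1*, on the other strand, overlap those of *Gapdh*, and *Iffo1* held counts equal to 3.17% of the *Gapdh* counts.

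*Pkm*, the pyruvate kinase that closes the pathway, had 868, 1302 and 1475 CPM in control eyes and 1249, 1814 and 2328 CPM in Nrf2 eyes at P20. At P40 the levels were 472, 1032 and 1194 CPM and at 775, 1470 and 2155 CPM. The eyes overlapped at both ages, yet the Nrf2 eye was higher in 6 of 7 and 9 of 9 mice. Neither difference was called by edgeR (0.54, SE 0.181, adjusted p = 0.161, and 0.67, SE 0.191, adjusted p = 0.0828). DESeq2 and voom called both as higher, and edgeR did so at P20 without mouse 4 or with no mouse block and at P40 without mouse 6. *Aldoa*, *Aldoc*, *Tpi1*, *Pgk1*, *Pgam1* and *Eno1* had fold changes between 0.10 and 0.48 at P20, all uncalled by edgeR with all mice; *Aldoa* was called higher by DESeq2, and *Aldoa* and *Pgk1* by voom and by edgeR without mouse 4. *Eno1* shares its sequence with a near-identical listed copy that held counts equal to 88.2% of its own, so its level is uncertain; with both summed, an alternative chosen after seeing the data, the fold changes were 0.24 at P20 and 0.0957 at P40, also uncalled.

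Of the lactate dehydrogenases, edgeR called *Ldhb* at P20 and not *Ldha*. *Ldhb* (ENSMUSG00000030246, chr6:142490249-142507957, minus strand, GRCm38) encodes the B subunit, which predominates in tissues that oxidise lactate. It had 398, 471 and 632 CPM in control eyes and 565, 937 and 1388 CPM in Nrf2 eyes at P20. Again the overlap was due to the Nrf2 eye of mouse 4. *Ldhb* rose by 0.96 (SE 0.191, adjusted p = 0.0337), higher in 6 of 7 mice, and by 1.11 (SE 0.168, adjusted p = 0.0193) without mice 3 and 4. No call remained without the filter on low counts or when mouse 1, 2, 3, 5, 6 or 7 was left out, with values from 0.872 to 1.12 and adjusted p up to 0.123 over the alternatives.

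*Ldha*, the A subunit that predominates where pyruvate is reduced to lactate, had 449, 528 and 609 CPM in control eyes and 292, 390 and 524 CPM in Nrf2 eyes at P20. It was lower in the Nrf2 eye of 6 of 7 mice, with mouse 4 the exception, and was not called (−0.41, SE 0.147, adjusted p = 0.185) except as lower by DESeq2, by voom and without mouse 4. Per kb, *Ldhb* made up 44.7, 52.2 and 63.2% of the sum of both genes in control eyes at P20 and 56.9, 74.5 and 84.6% in Nrf2 eyes. The share was higher in the Nrf2 eye of 6 of 7 mice, by a median of 21.8 percentage points.

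At P40 *Ldhb* lay at 560, 781 and 1296 CPM in control eyes and 824, 1163 and 2863 CPM in Nrf2 eyes, where the maximum was again from mouse 3. *Ldhb* was higher in the Nrf2 eye of 8 of 9 mice and was not called (0.62, SE 0.223, adjusted p = 0.202). *Ldha* had 362, 502 and 599 CPM in control eyes and 390, 413 and 730 CPM in Nrf2 eyes, with 4 of 9 mice higher (−0.13, SE 0.166, adjusted p = 0.865). The *Ldhb* share was 55.0, 66.0 and 81.3% in control eyes and 64.8, 75.0 and 90.0% in Nrf2 eyes, higher in 7 of 9 mice by a median of 6.43 points.

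Lactate transport showed no gene called by edgeR with all mice at either age, while DESeq2 and voom called *Slc16a1* and *Slc16a8* lower at P40. *Slc16a1*, which encodes the apical transporter MCT1 and has both cores in its printed window, had 214, 618 and 891 CPM in control eyes and 317, 585 and 883 CPM in Nrf2 eyes at P20. No direction was visible at that age (−0.0984, SE 0.31, adjusted p = 0.901). At P40 it lay at 88.6, 533 and 1317 CPM in control eyes and 105, 303 and 505 CPM in Nrf2 eyes. The Nrf2 eye was lower in 8 of 9 mice, with overlapping ranges, and the adjusted p was just over the threshold (−0.80, SE 0.21, adjusted p = 0.0551) and under it without mouse 8. *Slc16a8*, which encodes the basal transporter MCT3 of the RPE, ran a similar course. Its levels were 357, 1496 and 2260 CPM in control eyes and 841, 1415 and 2149 CPM in Nrf2 eyes at P20 (0.0770, SE 0.376, adjusted p = 0.939). At P40 they were 519, 1606 and 3155 CPM and 554, 1240 and 1640 CPM, lower in the Nrf2 eye of 8 of 9 mice (−0.61, SE 0.187, adjusted p = 0.111).

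*Slc16a3*, the MCT4 exporter of strongly glycolytic cells, was almost absent. It had 1.65, 2.02 and 9.35 CPM in control eyes and 0.685, 2.03 and 5.88 CPM in Nrf2 eyes at P20, then 0.477, 1.25 and 4.13 CPM and 0.733, 1.38 and 4.99 CPM at P40. The ranges overlapped at both ages and gave no call (−0.57, SE 0.543, adjusted p = 0.612, and 0.51, SE 0.438, adjusted p = 0.757). *Bsg*, the chaperone of MCT1 and MCT3, had 1799, 3572 and 5240 CPM in control eyes and 3107, 4746 and 6152 CPM in Nrf2 eyes at P20. At P40 it lay at 1731, 4788 and 5547 CPM and at 3574, 4129 and 5835 CPM. The ranges overlapped at both ages, with 3 Nrf2 libraries above the highest control library at P20 and 1 at P40. No call resulted (0.34, SE 0.279, adjusted p = 0.556, and −0.00512, SE 0.233, adjusted p = 0.997). The transporter gene *Slc16a7* (MCT2) was not called at either age.

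Entry of pyruvate into mitochondria depends on the carrier MPC1-MPC2 and on pyruvate dehydrogenase, which the PDK kinases switch off. *Mpc1* (ENSMUSG00000023861, chr17:8282904-8297661, plus strand, GRCm38) had 118, 139 and 151 CPM in control eyes and 149, 193 and 228 CPM in Nrf2 eyes at P20. The Nrf2 eye of mouse 2 was the 1 Nrf2 library inside the control range, and the Nrf2 eye was higher in 7 of 7 mice, without a call by edgeR (0.42, SE 0.117, adjusted p = 0.0955). DESeq2 and voom called *Mpc1* higher at P20, as did edgeR without mouse 4 or with no mouse block. At P40 it lay at 178, 229 and 467 CPM and at 170, 264 and 483 CPM, higher in 4 of 9 mice (0.0947, SE 0.246, adjusted p = 0.951). *Mpc2*, its partner (ENSMUSG00000026568, chr1:165460637-165481214, plus strand, GRCm38), had 69.7, 90.0 and 103 CPM in control eyes and 55.2, 82.4 and 95.9 CPM in Nrf2 eyes at P20. The P40 levels were 69.9, 138 and 385 CPM and at 78.2, 102 and 366 CPM. *Mpc2* overlapped between eyes at both ages (−0.15, SE 0.134, adjusted p = 0.588, and −0.19, SE 0.308, adjusted p = 0.899).

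*Pdk4*, the starvation-induced kinase, had 3.31, 4.75 and 6.64 CPM in control eyes and 2.23, 9.08 and 11.7 CPM in Nrf2 eyes at P20. Apart from mouse 2, whose Nrf2 library held the lowest value, the Nrf2 eyes were above the control range (0.73, SE 0.351, adjusted p = 0.314, higher in 6 of 7 mice), and voom alone called it. At P40 it lay at 2.24, 4.29 and 8.41 CPM and at 3.56, 8.04 and 13.2 CPM, higher in the Nrf2 eye of 9 of 9 mice and uncalled by edgeR with all mice (0.77, SE 0.213, adjusted p = 0.0702), but called higher by DESeq2, by voom and by edgeR without mouse 6. *Pdk1*, another of these kinases, had 26.7, 47.6 and 77.7 CPM in control eyes and 33.8, 46.1 and 76.7 CPM in Nrf2 eyes at P20. At P40 it had 18.2, 36.1 and 61.4 CPM and 19.8, 34.2 and 59.7 CPM. Its groups could hardly be distinguished (−0.0487, SE 0.27, adjusted p = 0.946, and −0.12, SE 0.236, adjusted p = 0.931). *Pdk2* and the pyruvate dehydrogenase subunit gene *Pdha1* were not called at either age.

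Of the glycogen genes, *Pygb* (the brain-type glycogen phosphorylase; ENSMUSG00000033059, chr2:150786735-150831758, plus strand, GRCm38) had 55.7, 80.7 and 105 CPM in control eyes and 67.3, 79.6 and 92.3 CPM in Nrf2 eyes at P20. At P40 it lay at 13.4, 36.1 and 82.5 CPM and at 18.9, 45.5 and 95.7 CPM. The Nrf2 range at P20 sat inside the control range, and neither age gave a call (−0.12, SE 0.154, adjusted p = 0.719, and 0.34, SE 0.28, adjusted p = 0.742). The glycogen synthase gene *Gys1* had log2 fold changes of 0.0159 and 0.00706.

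Whether the difference between eyes itself changed from P20 to P40 was tested as an interaction term with the 32 libraries together. The term was called for 0 of the 35 genes, with 0 at an unadjusted p under 0.05. DESeq2 and voom also called 0, though with voom 4 had such a p (11.4%, against 9.94% of all genes). Without P20 mouse 2, edgeR gave 3 such genes (8.57%, against 2.67%). Of 17959 genes tested by edgeR with all mice, 0.00557% passed. *Slc16a1* had the smallest unadjusted p of the 35, with an interaction of −0.69 (SE 0.374, adjusted p = 1). The calls of *Gapdh* and *Ldhb* at P20 alone, and of *Gpi1* at P40 alone, are thus not shown to differ between ages.

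The second question was how the genes differed between P20 and P40. The unsettled strain of some P40 pairs cannot be told apart from age here. In control eyes, *Mpc1*, *Mpc2* and *Ldhb* rose and *Pygb* fell, 4 of 35 genes (11.4%); 7 had an unadjusted p under 0.05 (20%, against 35.2% of all genes). Of all 16832 genes tested, 14.8% passed, 8.34% higher and 6.42% lower, so the 35 genes were called no more often than genes in general. DESeq2 called 7 of them (20%, against 26% of all genes) and voom 5 (14.3%, against 22.3%). Their median log2 fold change was −0.13, against −4.61e-05 over all genes. Without P20 mice 3 and 4, 0 of the 35 were called (6 with an unadjusted p under 0.05, 17.1% against 27.1% of all genes), and 0.916% of all genes passed.

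*Mpc1* was the 1 gene of the 35 whose control eyes did not overlap between ages: 118 to 151 CPM at P20 and 178 to 467 CPM at P40. The share of all genes without such overlap was not counted. *Mpc1* rose by 1.00 on the log2 scale (adjusted p = 0.0193, SE 0.228) and was called with each of the 16 control libraries left out in turn. It was not called without P20 mice 3 and 4 (1.04, SE 0.274, adjusted p = 0.0679). *Mpc2* had 69.7 to 103 CPM at P20 and 69.9 to 385 CPM at P40. Its P40 libraries were spread widely, with mice 2, 3, 5 and 8 high, mouse 7 between, and the others near the P20 range. The rise was 1.14 (SE 0.353, adjusted p = 0.0415), or 1.08 (SE 0.419, adjusted p = 0.124) without P20 mice 3 and 4, and it was called in 5 of 16 fits that each left out 1 library (0.878 to 1.25). *Mpc2* was also not called by voom or without the filter on low counts, and its lowest value over all alternatives was 0.534. *Mpc1* was above *Mpc2* per kb in 32 of 32 libraries.

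*Ldhb* went from 398 to 632 CPM at P20 to 560 to 1296 CPM at P40 in control eyes. Most P40 libraries were above the P20 range, and those of mice 4 and 8 were within it. It rose by 0.80 (SE 0.212, adjusted p = 0.0293), or 0.91 (SE 0.249, adjusted p = 0.0715) without P20 mice 3 and 4, and was called in 8 of 16 fits with 1 library left out (0.659 to 0.868) but not without the filter. *Ldha* showed no such difference (−0.0480, SE 0.146, adjusted p = 0.839). *Ldhb* was thus called both in Nrf2 eyes at P20 and with age in control eyes, comparisons that share the P20 control libraries.

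*Pygb* had 55.7 to 105 CPM at P20 and 13.4 to 82.5 CPM at P40. The 4 lowest P40 libraries were those of mice 2, 3, 5 and 8, which were also the highest for *Mpc2*. The log2 fold change was −1.08 (adjusted p = 0.0397, SE 0.327), or −1.04 (adjusted p = 0.11) without P20 mice 3 and 4, and *Pygb* was called in 6 of 16 fits with 1 library left out (−1.28 to −0.965) but not without the filter. *Slc2a3* and *Slc16a3*, both scarce, had large fold changes that missed the threshold (−1.52 and −1.46, adjusted p = 0.0522 for each) with edgeR; DESeq2 called both lower, *Pdk2* was called lower by DESeq2 and voom, and *Gys1* lower by voom. Cone markers had fold changes above 0 in 8 of 8 genes in this comparison, 3 of them with an unadjusted p under 0.05, as did 7 of 7 genes shared by rods and cones (1 with such a p); edgeR called none of either list, and 4 of 6 fibroblast markers fell. Among the other lists, 3 of 10 rod markers fell, 1 of 11 RPE markers rose and 2 fell, and 1 gene fell in each of the lists for Müller glia, for Schwann cells and melanocytes, and for blood. Skeletal muscle genes had fold changes above 0 in 8 of 8 (2 with an unadjusted p under 0.05), none called. Inner retina genes had them below 0 in 9 of 10 (2 with such a p), also none called. The part of these cells in the changes with age was not tested. Among the genes called here, *Mpc1*, *Mpc2* and *Ldhb*, which rose, have transcripts of 920, 1025 and 1304 bases. The transcript of *Pygb*, which fell, has 3909 bases. A part of transcript length or RNA quality in these changes was not tested either.

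In Nrf2 eyes, 0 of the 35 genes were called between P20 and P40 by edgeR, with 8 at an unadjusted p under 0.05 (22.9%, against 25.8% of all genes). DESeq2 called 3 (*Slc16a1* lower, *Mpc1* and *Mpc2* higher; 8.57%, against 10.9% of all genes) and voom 4 (*Slc16a1*, *Pdk2*, *Pygb* and *Gys1* lower; 11.4%, against 13.2%). Of all 16745 genes tested, 0.502% passed. *Mpc2* (1.11, SE 0.367, adjusted p = 0.111) and *Mpc1* (0.66, SE 0.233, adjusted p = 0.116) had fold changes above 0, as in control eyes. *Slc16a1* went from a median of 585 to 303 CPM (−0.92, SE 0.279, adjusted p = 0.11), against a median of 618 and 533 CPM in control eyes (−0.0271, SE 0.428, adjusted p = 0.971). All 5 genes of lactate transport had fold changes below 0 in Nrf2 eyes with edgeR, which called none of them; with voom 4 of 5 were below 0, and DESeq2 and voom called *Slc16a1*. Marker genes differed with age in these eyes as well: fold changes were above 0 for 8 of 8 skeletal muscle (median 1.90, 5 with an unadjusted p under 0.05), 9 of 10 inner retina (median 1.91, 2 with such a p) and 6 of 8 cone genes (5 with such a p), none called, and 1 RPE marker fell (*Pmel*). The part of these cells was not tested. Without P20 mice 3 and 4, 0 of the 35 were called (5 with an unadjusted p under 0.05, 14.3% against 18.7% of all genes) and 0.116% of all genes passed.

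**Figure D5:**
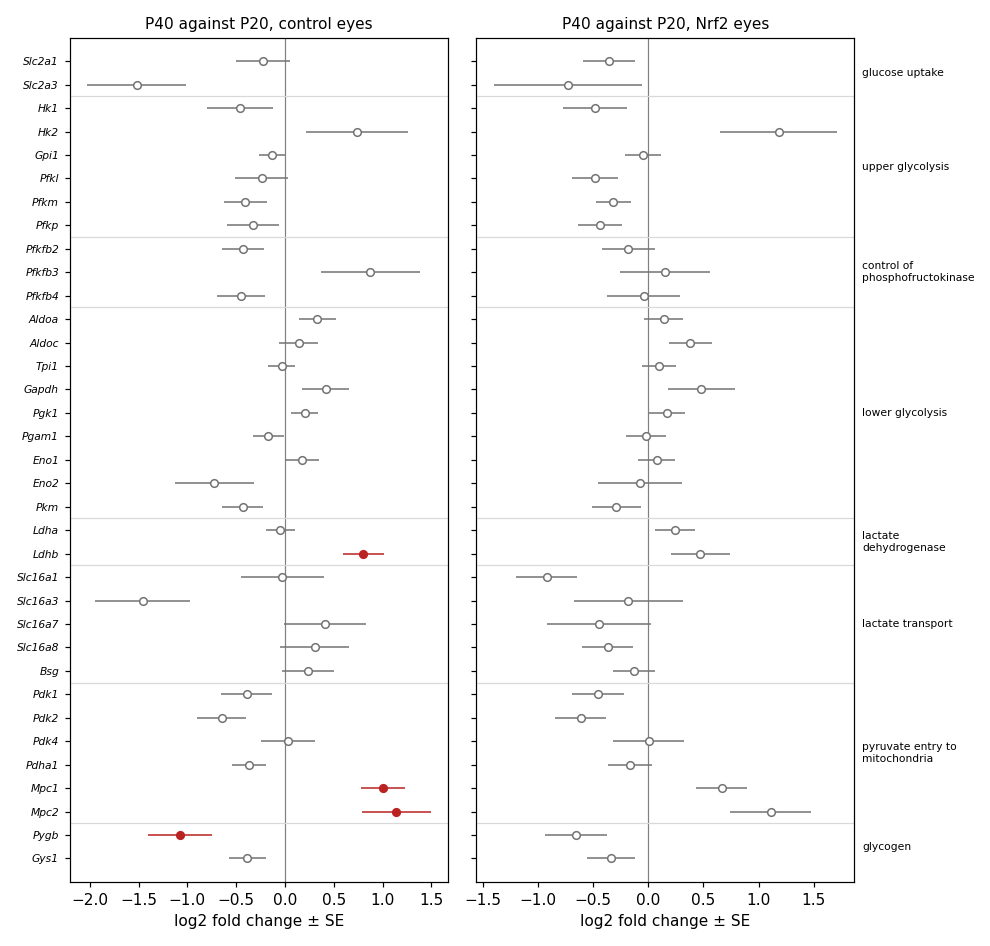
Log2 fold change (P40 over P20) of the 35 genes in control eyes and in Nrf2 eyes, ordered by role, with bars of 1 standard error. Filled red points, with an adjusted p under 0.05, are *Ldhb* (0.80), *Mpc1* (1.00), *Mpc2* (1.14) and *Pygb* (−1.08) in control eyes, and there are none in Nrf2 eyes.

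Other genes around the pathway were counted from lists of their own. Of 62 other genes of glycolysis, pyruvate and glycogen metabolism, 52 were tested in each comparison of eyes, and 8 rose at P20 while 7 rose and 1 fell at P40 (15.4% of the list at each age, against 3.41% and 4.57% of all genes). Glycogen enzymes were prominent among them. *Gbe1*, the branching enzyme of glycogen synthesis, had 22.1, 34.9 and 47.3 CPM in control eyes and 59.1, 138 and 217 CPM in Nrf2 eyes at P20, with no overlap. It rose by 1.99 (adjusted p = 0.00921) at P20 and by 2.19 (adjusted p = 0.000135) at P40, where the groups did not overlap either. Subunits of phosphorylase kinase, which activates glycogen breakdown, rose too: *Phka1* by 1.99 (adjusted p = 0.0131) and 2.18 (adjusted p = 0.000452), and *Phkb* by 1.00 (adjusted p = 0.0102) and 0.81 (adjusted p = 0.00559). *Ugp2*, which makes UDP-glucose, rose by 0.57 (adjusted p = 0.0184) and 0.54 (adjusted p = 0.0441), and the phosphoglucomutase gene *Pgm1* by 1.00 (adjusted p = 0.0197) and 1.25 (adjusted p = 0.00184).

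Outside glycogen, malic enzyme *Me1*, which makes NADPH, rose by 1.26 (adjusted p = 0.0205) and 0.99 (adjusted p = 0.0244) at P20 and P40. *Slc16a4*, a relative of the lactate transporters, rose by 1.12 (adjusted p = 0.0134) and 1.49 (adjusted p = 0.00252). *Pcx*, pyruvate carboxylase, rose at P20 (1.00, adjusted p = 0.0384), and *Slc16a6* fell at P40 (−0.72, adjusted p = 0.0356). Without mice 3 and 4 the same 8 genes were called at P20. Other settings lost some: *Pcx* and *Ugp2* at P20 without the filter on low counts, and at P40 *Ugp2* with RLE and without the filter, *Slc16a6* without the filter and with no mouse block, and *Me1* with no mouse block. At P20, DESeq2 called 13 higher and 1 lower, voom 15 and 3, and edgeR with no mouse block 10 and 0. At P40, DESeq2 and voom each called 9 higher and 1 lower. With age in control eyes 3 of these 52 genes were called (5.77%, against 14.8% of all genes; DESeq2 and voom each called 9, 2 higher and 7 lower), *Gapdhs* higher (0.745) and *Slc16a10* (−1.22) and *Slc16a12* (−1.13) lower; without the filter *Slc16a10* alone was called, and without P20 mice 3 and 4 none was. In Nrf2 eyes edgeR called 0 of them with age (10 with an unadjusted p under 0.05), DESeq2 2 and voom 7, all lower.

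The pentose phosphate pathway branches from glucose 6-phosphate and yields NADPH, and 3 of its 7 genes rose in Nrf2 eyes at both ages (42.9%, against 3.41% of all genes at P20 and 4.57% at P40). *G6pdx*, glucose-6-phosphate dehydrogenase, had 66.8, 112 and 196 CPM in control eyes and 175, 364 and 454 CPM in Nrf2 eyes at P20, then 42.4, 107 and 161 CPM and 134, 394 and 508 CPM at P40. It rose by 1.53 (adjusted p = 0.0136) and 1.69 (adjusted p = 0.00191). *Pgd*, the next oxidative enzyme, rose by 2.04 (adjusted p = 0.00921) and 2.61 (adjusted p = 0.000294), with no overlap at P40, and *Taldo1*, transaldolase, by 1.80 (adjusted p = 0.0111) and 1.68 (adjusted p = 0.0042). The same 3 were called at P20 without mice 3 and 4. *Pgd* was the 1 gene of the 7 called with age in control eyes, where 14.8% of all genes were called; it fell (−0.86, adjusted p = 0.0347) but was not called without P20 mice 3 and 4. DESeq2 called *Pgls*, *Pgd* and *Taldo1* in that comparison, 2 higher and 1 lower, against 26% of all genes. For comparison with the 35 genes, *Pfkfb4* alone had fold changes near the size of these.

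Because several glycolytic genes are known targets of hypoxia-inducible factor (HIF), 15 other HIF targets were counted. At P20 1 rose, *Adm* (4.50, adjusted p = 0.0136), and 1 fell, *Ndrg1* (−0.91, adjusted p = 0.0428); at P40 2 rose, *Adm* (4.74, adjusted p = 3.09e-05) and *Bnip3* (1.13, adjusted p = 0.00678), 13.3% of the list at each age, against 3.41% and 4.57% of all genes. *Adm*, which encodes adrenomedullin, had 0.838, 1.99 and 3.23 CPM in control eyes and 17.7, 54.5 and 139 CPM in Nrf2 eyes at P40, with no overlap. Without mice 3 and 4, *Adm* and *P4ha1* were called at P20 and *Ndrg1* was not; nor was *Ndrg1* called without the filter. DESeq2 called 3 HIF targets higher and 1 lower at P20 and voom 3 and 3, and each called 3 higher at P40. Among the HIF targets the median log2 fold change was −0.0475 at P20 and 0.16 at P40, with 7 of 15 and 10 of 15 above 0. With age, *Egln1* rose in both kinds of eye (1.28 in control eyes; 1.33, adjusted p = 0.0214, in Nrf2 eyes), and *Higd1a* (1.33) in control eyes, which made 13.3% of the list in control eyes and 6.67% in Nrf2 eyes, against 14.8% and 0.502% of all genes. Without P20 mice 3 and 4 only *Egln1* in control eyes was still called, and without the filter on low counts *Egln1* in Nrf2 eyes and *Higd1a* were lost too.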

How the data were processed

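The authors sequenced amplified RPE RNA and deposited estimated counts per gene (rounded; Ensembl identifiers, mouse build mm10). Their processing notes name FastQC and Salmon 0.9.1; that these counts come from Salmon, which can split reads between near-identical genes, is inferred. The study's methods also name STAR alignments counted by featureCounts, and the labels do not say which route gave these counts. Symbols matched 34401 of 34453 genes. Coordinates are from GENCODE (GRCm38), and transcript length is the median of protein-coding transcripts.

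The analysis ran under R 4.3.3 and used edgeR 4.0.16 (TMM scaling, filterByExpr, quasi-likelihood test, Benjamini-Hochberg adjustment over all genes tested; called means an adjusted p under 0.05). Each comparison used the libraries of its own groups; comparisons of eyes and the interaction had the mouse as a block, since the labels give both eyes of a mouse 1 number, and the age comparisons had none. Deviations of same-mouse eyes correlated at a mean of 0.0142 (P20) and 0.106 (P40), over 0.1 in 2 of 7 and 3 of 9 pairs. CPM were scaled by TMM. Library totals and the floor are given with the results. Named genes were those called, plus *Slc2a1*, *Hk1*, *Hk2*, *Pfkfb3*, *Gapdh*, *Pkm*, *Ldha*, *Ldhb*, *Slc16a1*, *Slc16a3*, *Slc16a8*, *Bsg*, *Pdk1*, *Pdk4* and *Mpc1*; in wider lists, called genes, at most 8 per comparison. The members and lists were chosen with earlier results of these data known.

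Alternatives were RLE scaling, DESeq2 1.42.0, limma 3.58.1 (voom with quality weights), no filter, no mouse block, and leaving out each mouse, or P20 mice 3 and 4. Chosen after seeing the data was the sum of *Eno1* with its copy. So were the wider lists under these settings, except leaving out single mice, and the marker ratios without P20 mice 3 and 4. Programs were tested on simulated data. The 2 sequencing runs are not assigned to libraries, so a run effect was not tested. Library names begin with M at P20 and with A at P40, and whatever this letter stands for cannot be told apart from age. The second *Aldoa* entry was left out, and strand was not used: overlap with exons of other genes was listed for the called genes.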

Additional observations from a re-analysis of the deposited data

Results flagged for a closer look

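Single libraries that lay far from the rest of their group were looked for in 76 groups of values of 19 members and 48 of marker sums. There were 10 among the members and 10 among the markers, and by the design of the rule chance gives about 1 in 20 groups of normally distributed values; the rate for values such as these was not tested. The causes were not tested.

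In the glycolytic genes, *Slc2a1* was low in the control eye of P20 mouse 6 (727 CPM, the others 1101 to 1363). *Hk2* was low in the Nrf2 eye of P20 mouse 3 (2.71 CPM, the others 4.25 to 5.17), and high in the Nrf2 eye of P40 mouse 3 (41.4 CPM, the others 2.58 to 11.6) and the control eye of P40 mouse 8 (59.5 CPM, the others 4.16 to 15.7). *Pfkfb3* was high in the same control eye (70.4 CPM, the others 4.44 to 13.7) and in the Nrf2 eye of P20 mouse 2 (26.3 CPM, the others 3.45 to 9.08). *Ldhb* was high in the Nrf2 eye of P40 mouse 3 (2863 CPM, the others 824 to 1658). *Slc16a3* was high in the control eye of P40 mouse 7 (4.13 CPM, the others 0.477 to 1.53). *Bsg* was high in the Nrf2 eye of P40 mouse 4 (5835 CPM, the others 3574 to 4557). *Pdk4* was low in the Nrf2 eye of P20 mouse 2 (2.23 CPM, the others 7.93 to 11.7).

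Among marker sums, the Nrf2 eye of P20 mouse 2 was high in rod (85.1 CPM, the others 12.9 to 35.6), cone (94.3 CPM, the others 17.9 to 35.9) and inner retina markers (562 CPM, the others 94.0 to 149). The Nrf2 eye of P40 mouse 6 was high in rod (131 CPM, the others 16.9 to 41.0), cone (307 CPM, the others 28.8 to 57.6) and inner retina markers (2413 CPM, the others 102 to 654). Skeletal muscle markers were high in the Nrf2 eyes of P40 mouse 3 (1859 CPM, the others 26.7 to 522) and P20 mouse 4 (235 CPM, the others 17.8 to 105) and in the control eye of P40 mouse 5 (436 CPM, the others 41.5 to 186). Schwann cell and melanocyte markers were high in the control eye of P40 mouse 1 (162 CPM, the others 28.8 to 78.4). By library, 5 of these values fell in the Nrf2 eye of P20 mouse 2, 3 each in the Nrf2 eyes of P40 mice 3 and 6, and 2 in the control eye of P40 mouse 8.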

How the results depend on the processing

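For Nrf2 against control eyes at P20, where 3 of the 35 genes were called, the number was 9 with DESeq2, 14 with voom, 1 without the filter on low counts, 7 with no replicate block (the mouse not fitted as a block), 2 with RLE scaling and 4 without P20 mice 3 and 4, and leaving out single mice gave 0 (mouse 7) to 12 (mouse 4). At P40 it was 2, with 7 by DESeq2, 7 by voom, 2 under the other settings including no replicate block, and 1 to 4 without single mice; leaving out P20 mice does not apply. *Gpi1* was not called at P40 without mouse 4 or mouse 7. For age in control eyes it was 4, with 7 by DESeq2, 1 without the filter, 0 without P20 mice 3 and 4 and 1 to 6 without single libraries; in Nrf2 eyes it was 0, with 3 by DESeq2, 4 by voom and 0 without single libraries. The interaction gave 0 everywhere. With the replicate block removed, no other member count changed by more than 1.5 times.

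Over all settings, the number of genes called among all genes tested ran from 111 to 2605 at P20 (556 as reported), 521 to 1380 at P40 (762), 158 to 4383 with age in control eyes (2483), 20 to 2213 in Nrf2 eyes (84) and 1 to 12 for the interaction (1). The median of all genes shifted by at most 0.116 (age, Nrf2 eyes).

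Of 733 recomputed fold changes and tests of the called genes and *Eno1*, 637 kept direction and side of the threshold, 55 lost the call, 15 gained one and 26 changed sign, none of the last called. With voom, the sign turned for *Mpc1* between eyes at P40 (−0.0376), *Pfkfb4* with age in Nrf2 eyes (0.244) and the *Gapdh* interaction (−0.0437). Without P20 mice 3 and 4 the interactions of *Gapdh* (−0.171), *Gpi1* (−0.0787) and *Mpc2* (0.035) turned, as did those of *Hk1* (0.0103 to −0.13), *Pkm* (0.13 to −0.0532) and *Pdk4* (0.0506 to −0.18) outside that count, and lower glycolysis went from 6 of 9 genes with an interaction above 0 to 1 of 9. Leaving out single mice gave −0.0527 to 0.216 for *Mpc1* between eyes at P40; in Nrf2 eyes with age −0.192 to 0.0989 for *Pfkfb4*, −0.154 to 0.0112 for *Gpi1* and −0.0248 to 0.129 for *Eno1*; and interactions of −0.13 to 0.13 for *Gapdh*, −0.0379 to 0.147 for *Gpi1* and −0.277 to 0.14 for *Mpc2*. The causes were not tested.

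Limits are the amplified bulk tissue, the unsettled strain of some P40 pairs, which cannot be told apart from age, the 2 P20 libraries that resemble each other, and low counts of *Slc16a3*, *Slc2a3* and *Hk2*, where fold changes are imprecise. The higher vector dose and further capsid type of Nrf2 eyes cannot be told apart from Nrf2. No protein or metabolite was measured here.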
